A study of Homo sapiens with 4 samples.

Results

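The cytosolic ribosomal protein genes are the probes whose gene name on the array is RPL or RPS followed by a number, with or without a final A, X or L, together with RPLP0, RPLP1, RPLP2 and RPSA. The rule matched 180 of 43118 non-control spots, which are 153 of 34127 probes and 79 of 25992 gene names. Of the 79 genes, 48 belong to the large subunit (RPL names) and 31 to the small subunit (RPS names). No probe under the name RPSA was analysed here. The choice of members did not use any measured value.

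Gene expression was measured on 4 Agilent arrays, each hybridised with the Cy3-labelled RNA of 1 sample, from immortalised human proximal tubular cells (HPTCs). Of these arrays, 2 were labelled HK-2 and 2 were labelled RPTEC/TERT1. HK-2 cells are adult kidney cells immortalised with papillomavirus oncogenes and were kept in a keratinocyte medium with serum, whereas RPTEC/TERT1 cells are renal epithelial cells immortalised with the catalytic subunit of telomerase and were kept in a medium with defined supplements and no serum. After 24 h without serum and supplements, both lines received IL-1β (10 ng/mL) together with empagliflozin (Empa, 500 nM), an inhibitor of the sodium-glucose cotransporter SGLT2, for a further 24 h. All 4 arrays therefore carry the same treatment, and no untreated or IL-1β-only arrays were used here.

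Ribosomal proteins coat the ribosomal RNA of the large and the small subunit, and nearly every one is present in a single copy per ribosome, so that their mRNAs are made at high and coordinated levels in every growing cell. Most of these mRNAs begin with a 5′ terminal oligopyrimidine (TOP) sequence, through which growth signals and mTOR control their translation. Proximal tubular cells synthesise large amounts of transport protein, and ribosomal protein mRNAs are among the most abundant messages in them as in other tissues.

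A few probe sequences show how the array separates, or does not separate, these genes. Probes are 60 bases long, and coordinates are those of the files (hg19). RPS27L is a p53-responsive paralog of RPS27, and the probes of the parent and the paralog lie over the same stretch of coding sequence. Over the 54 bases that both cover, 42 were identical (77.8%). Capitals mark the 12 bases that differ, with the RPS27 probe at chr1:153964053-153964112 on the plus strand and the RPS27L probe at chr15:63447866-63447925 on the minus strand.
RPS27: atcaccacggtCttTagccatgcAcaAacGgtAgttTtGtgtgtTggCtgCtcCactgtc
RPS27L: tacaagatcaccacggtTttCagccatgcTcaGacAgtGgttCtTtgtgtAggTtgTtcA

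In contrast, 2 probes that the array design assigns to the same RPS29 transcript (NM_001032) differ from each other. Of the 51 bases that both cover, 46 were identical (90.2%), and capitals mark the 5 that differ. Their coordinates are chr14:50052719-50053013 for A_33_P3270852 and chr14:50052710-50053004 for A_33_P3419806, both on the minus strand and both across an intron.
A_33_P3270852: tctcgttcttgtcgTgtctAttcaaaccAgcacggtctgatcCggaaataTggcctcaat
A_33_P3419806: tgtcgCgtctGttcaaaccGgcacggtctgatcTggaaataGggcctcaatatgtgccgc

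The remaining sequences belong to the probes that varied most between the arrays or between the labels. The RPS14 probe A_23_P81492 (chr5:149826459-149826518, minus strand) lies in coding sequence and is printed whole. Where the files do not place a probe relative to the coding sequence, the first 30 of 60 bases are printed. These are RPS29 A_33_P3282840 (chr14:50044074-50044133, minus strand, transcript variant NM_001030001), RPS23 A_33_P3257714 (chr5:81569290-81569349, minus strand), RPL28 A_33_P3299319 (chr19:55899028-55899087, plus strand, transcript variant NM_001136137) and RPL39L A_23_P29594 (chr3:186839111-186845840, minus strand, across an intron).
RPS14: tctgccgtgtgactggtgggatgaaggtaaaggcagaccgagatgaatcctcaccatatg
RPS29: ctgcacagtgcagaaagtgaatagacagtg
RPS23: aaattgtgaaactccctgttgtgttctgta
RPL28: gcagctttctggcatgagaaaggagtgttt
RPL39L: gagagaagcaagcatctttgcctctttgga

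Before any comparison it must be stated that the arrays went against their labels. Across the 20807 probes tested, replicate 1 of HK-2 and replicate 2 of RPTEC/TERT1 differed by a median of 0.23 on the log2 scale, and replicate 2 of HK-2 and replicate 1 of RPTEC/TERT1 by 0.32, while the 2 HK-2 arrays differed by 0.69 and the 2 RPTEC/TERT1 arrays by 0.83. Replicate 1 of both lines was scanned on one date and replicate 2 on another, so that the scan date goes with the replicate number. Of 12 proximal tubule marker genes, 5 were above background on all 4 arrays and 3 (CUBN, HNF4A and SLC22A6) on none, and their summed signal, in multiples of the 75th percentile of the array, was 21.2 and 5.16 on the HK-2 arrays and 8.93 and 17.6 on the RPTEC/TERT1 arrays. Of 5 fibroblast genes, COL3A1 and PDGFRB were above background on no array, and the summed signal of the list was 0.0492 and 4.74 on the HK-2 arrays and 3.52 and 0.0564 on the RPTEC/TERT1 arrays. Of the other marker genes on the array, 3 of 4 for epithelium, 1 of 4 for endothelium and 3 of 4 for leukocytes were above background on all 4 arrays. The part of these markers in any result below was not tested, and in bulk RNA fewer cells of a type and less RNA per cell cannot be told apart.

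Nearly all ribosomal protein genes were detected on all 4 arrays. Of the 153 probes, 146 were well above background on all 4 arrays, and 78 of the 79 genes had at least 1 such probe on each array. The exception was RPL36, a large subunit protein whose only probe read 17870, 36053, 21757 and 20568.0 scanner units on HK-2 replicates 1 and 2 and RPTEC/TERT1 replicates 1 and 2 but lacked the mark for HK-2 replicate 1. The median signal of the tested ribosomal protein probes was 35359 and 59112 on the HK-2 arrays and 36296 and 47283 on the RPTEC/TERT1 arrays, whereas the median of all probes tested was 170.0, 326.8, 208.4 and 186.1 in the same order. The signal of a probe depends on how well it binds as well as on the RNA, so these medians do not rank single genes.

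Saturation was more frequent among these probes than among the rest of the array, most of which is far dimmer. A spot is marked saturated where its pixels reach the top of the scanner's range, and its signal is then only a lower bound. On HK-2 replicate 1, 16 of the 153 probes were saturated (10.5%), on HK-2 replicate 2 it was 81 (52.9%), on RPTEC/TERT1 replicate 1 it was 17 (11.1%), and on RPTEC/TERT1 replicate 2 it was 43 (28.1%). Among all other probes the share was 0.138%, 0.312%, 0.0942% and 0.215%. Ribosomal protein spots made up 18.6% to 45.62% of all saturated spots of an array. At least 1 array was saturated for 81 probes of 63 genes, and 35 probes were saturated on exactly 1 array, which was HK-2 replicate 2 in all 35 cases.

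The 9 probes that were saturated on all 4 arrays included those of RPL12, RPL13, RPL23A, RPLP1, RPS2, RPS10, RPS27 and RPS28 (1 probe each, other probes of RPL13, RPL23A, RPS2, RPS10, RPS27 and RPS28 not being saturated throughout). For RPS2, a small subunit protein at the mRNA entry channel, the saturated probe read 72581 and 84184 on the HK-2 arrays and 76643 and 79424 on the RPTEC/TERT1 arrays. For RPS28 the values were 71442, 86314, 76226 and 79245. Since both labels were at the limit, no fold is given for any of the 9.

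**Figure D1:**
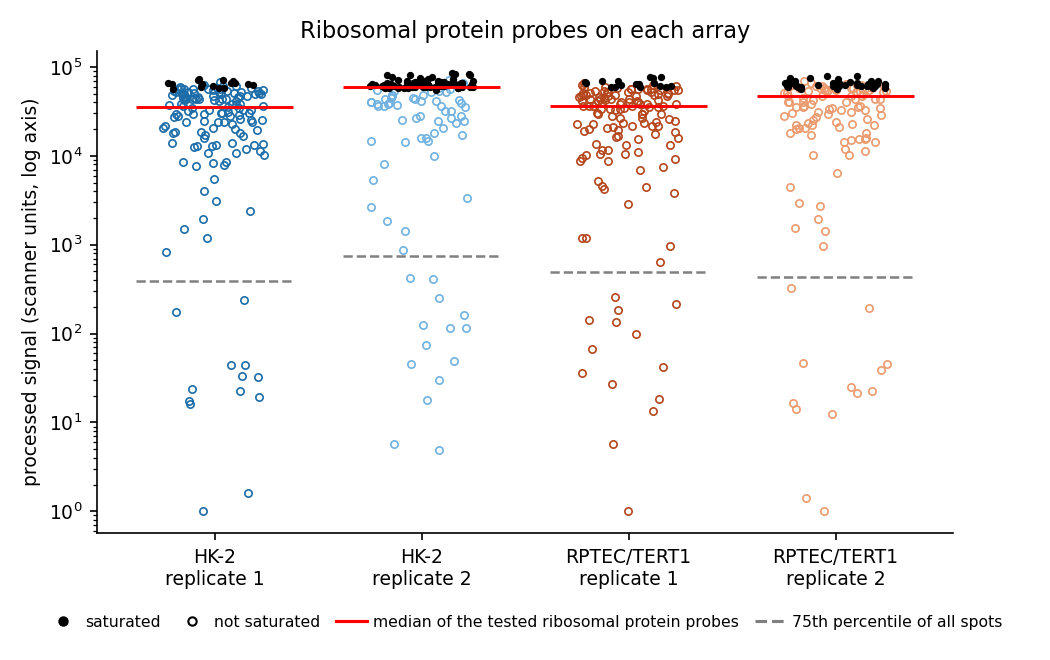
Processed signal (scanner units, log axis) of the 153 ribosomal protein probes on each of the 4 arrays, with saturated probes filled in black, the median of the 149 tested probes as a red line and the 75th percentile of all spots as a dashed line. Values under 1 are drawn at 1. The cloud ends at the same height on every array, and 81 of 153 probes are black on HK-2 replicate 2 against 16 on HK-2 replicate 1.

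Signals were compared as levels, the log2 of the signal over the 75th percentile of its array, and this percentile was 393 and 748 on the HK-2 arrays and 488 and 429 on the RPTEC/TERT1 arrays. The upper limit did not move with it. The median saturated ribosomal protein spot read 64724, 63670, 65068 and 63179 on the 4 arrays, which are levels of 7.36, 6.41, 7.06 and 7.20. The level of the median saturated spot was thus lowest on HK-2 replicate 2, although its signal lay between 63179 and 65068 on every array. The levels of saturated members below carry this limit.

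The study design allows a single comparison on these arrays, whether ribosomal protein genes differ between the labelled cell lines under IL-1β and Empa. Of the 153 probes, 149 could be tested. The median level over them was 6.49 and 6.31 on the HK-2 arrays and 6.22 and 6.79 on the RPTEC/TERT1 arrays, that is 6.40 ± 0.13 and 6.50 ± 0.40 (SD, n = 2 each). The lines overlapped, with RPTEC/TERT1 holding both the lowest and the highest array.

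No ribosomal protein probe passed the test. With limma and Benjamini-Hochberg adjustment over all 20807 probes, 0 of 149 members had an adjusted p under 0.05, against 0% of all probes, and the smallest adjusted p of a member was 1. At an unadjusted p under 0.05 the counts were 0 of 149 members and 26 of 20807 probes (0.125%). Of the 149 probes, 148 differed by less than 0.5 on the log2 scale between the means of the lines. The same share over all probes is not given here, so this count does not set the members apart. Of the 149, 81 were saturated on at least 1 array. The median difference, HK-2 minus RPTEC/TERT1, was -0.09 over the members and 0.02 over all probes tested, but with quantile normalization in place of the 75th percentile the members' median turned to 0.03.

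The sign of this difference also changed between the scan dates. Within replicate 1 the median level of the members was 0.27 higher in HK-2 than in RPTEC/TERT1 (117 of 149 probes higher), and within replicate 2 it was 0.64 lower (21 of 149 higher). Over all probes tested the same medians were 0.11 and -0.07. The large and the small subunit did not part, with a median difference of -0.09 over 88 large subunit probes (25 above and 63 below 0) and -0.09 over 61 small subunit probes (17 above and 44 below 0).

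Members that reached the scanner's limit are given apart from those that did not. The 81 probes that were saturated on at least 1 array had a median difference of -0.20, with 75 of 81 lower in HK-2, whereas the 68 tested probes that were saturated on no array had a median of 0.02, with 32 of 68 lower. Among the 49 tested probes with a mean signal under 30000, a limit chosen after the values were seen, the median was 0.05 and 17 were lower. No test was made over these lists.

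Both HK-2 arrays lay below both RPTEC/TERT1 arrays for 10 of 149 members (6.71%), against 2.87% of all probes tested, and both lay above for 0 members, against 3.98%. The 10 probes were those of RPL8, RPL9, RPL35, RPL37, RPL39, RPLP0, RPS2, RPS19, RPS24 and RPS29, and 9 of them were saturated on at least 1 array. On the other probes of RPL35, RPL37, RPL39, RPLP0, RPS2, RPS19 and RPS29 the lines overlapped. With quantile normalization HK-2 lay below for 14 members (9.40%, against 3.12% of all probes) and above for 6 (4.03% against 3.72%). With the deposited log2 values the counts were 45 (30.2% against 2.97%) and 1 (0.671% against 5.93%). With normexp background correction they were 60 (40.3% against 5.65%) and 1 (0.671% against 7.88%).

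**Figure D2:**
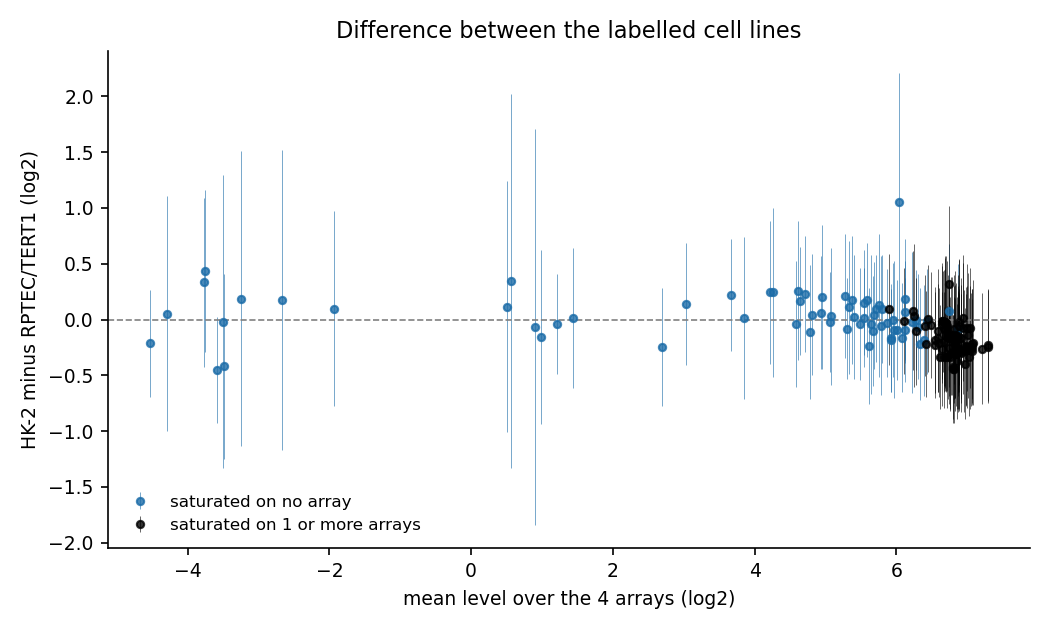
Difference between the labelled lines (HK-2 minus RPTEC/TERT1, log2) against the mean level over the 4 arrays (log2) for the 149 tested ribosomal protein probes, with bars of 1 standard error from limma. Probes saturated on 1 or more arrays (black) crowd at the right and lie mostly below 0, with a median of -0.20, while the others (blue) have a median of 0.02. With quantile normalization the median over all 149 turned from -0.09 to 0.03.

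The 5 largest positive differences belonged to probes of RPS14, RPL3L, RPS29 and RPS26 (2 probes), all small subunit proteins except RPL3L. The RPS14 probe shown above, for a protein of the small subunit platform whose gene is lost in a form of myelodysplastic syndrome, read 41986 and 62997 on the HK-2 arrays and 7559 and 57589.9 on the RPTEC/TERT1 arrays. Only RPTEC/TERT1 replicate 1 was low, and the lines overlapped. The difference was 1.06 with a standard error of 1.15, or 2.79 within replicate 1 and -0.67 within replicate 2 (adjusted p = 1, limma).

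A further RPS14 probe, A_24_P808522, read 8417, 14456, 5233 and 11827 on the same arrays and was again lowest on RPTEC/TERT1 replicate 1, but its range over the arrays was 1.36 on the log2 scale against 3.12 for A_23_P81492. RPS26, which contacts mRNA near the exit channel, was likewise lowest on RPTEC/TERT1 replicate 1 on probe A_23_P116694, with 64411, 65793, 29575 and 65958. This probe was saturated on both HK-2 arrays and on RPTEC/TERT1 replicate 2, so those 3 arrays cannot be ranked and no fold between the lines is given.

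The 5 largest negative differences were held by probes of RPL37, RPS19, RPL9, RPL35 and RPS6 and ranged from -0.45 (RPL37) to -0.42 (RPS6), each with a standard error of at least 0.47. The RPL37 and RPS6 probes were dim, with mean signals of 41.7 and 54.7 scanner units. The bright probes of these genes, A_24_P20777 and A_23_P123563, gave -0.15 and -0.22. The other probes of RPS19 and RPL35, A_23_P119130 and A_32_P72940, gave -0.05 and 0.23, and the lines overlapped on both. Of these, A_23_P119130 was saturated on HK-2 replicate 2. RPS19, the gene most often mutated in Diamond-Blackfan anaemia, had levels of 6.80 and 6.39 in HK-2 and 6.84 and 7.24 in RPTEC/TERT1 on probe A_24_P134074. RPL9, a protein of the large subunit, had levels of 6.83, 6.33, 6.87 and 7.17 in the same order. Both probes were saturated on replicate 2 of both lines. On this scale HK-2 replicate 2 was lowest in both cases, but its saturated signal is a lower bound, so it cannot be ranked. With quantile normalization HK-2 replicate 1 was lowest, at 6.62 for RPS19 and 6.65 for RPL9, against 6.84 and 6.69 on HK-2 replicate 2. On RPS19 A_24_P134074 and the RPL9 probe the measured values of the lines did not overlap with either scaling.

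The stalk of the large subunit, on which translation factors land, is built from RPLP0 and the acidic proteins RPLP1 and RPLP2. RPLP0 A_23_P204472 is spotted 10 times and read 41215 and 66065 on the HK-2 arrays and 65517 and 47224 on the RPTEC/TERT1 arrays. On replicate 2 of HK-2 and replicate 1 of RPTEC/TERT1, 10 and 8 of its spots were saturated, and on the others none. The other RPLP0 probe read 61376, 64831, 67752 and 66254, and was saturated on every array but HK-2 replicate 1, so no fold is given.

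RPLP1 read 65458 and 65226 in HK-2 and 64705 and 66576 in RPTEC/TERT1, all saturated. RPLP2 read 68868 and 67303 in HK-2 and 63037.5 and 69902 in RPTEC/TERT1, saturated on all but RPTEC/TERT1 replicate 1. For these acidic stalk proteins the arrays give only that the signal stood at or near the limit in both lines.

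Repeated spots give the spread between spots of 1 probe within a single array. RPL30, RPLP0 and RPS6 are each spotted 10 times, and the SD of the level over the spots of a probe within an array was between 0.06 and 0.14 on the log2 scale. Outlier spots were left out, and arrays on which all 10 spots of RPLP0 or RPS6 were saturated were kept. This SD is therefore not the full measuring error. RPS6, the ribosomal target of S6 kinase, read 57216, 65144, 55142 and 65153 on HK-2 replicates 1 and 2 and RPTEC/TERT1 replicates 1 and 2, with all 10 spots saturated on replicate 2 of both lines. RPL30, a protein of the large subunit, read 20267, 54824, 24204 and 28789 with 1 saturated spot, on HK-2 replicate 2.

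As a description of the spread between arrays, the range over the 4 arrays had a median of 0.79 on the log2 scale over the 149 members and of 1.09 over all probes tested, and it exceeded 1 in 33 members (22.1%) against 54.9% of all probes. Of the 81 members saturated on at least 1 array 5 exceeded 1, of the 68 saturated on no array 28 did, and of the 49 with a mean signal under 30000 it was 24. With normexp background correction the range exceeded 1 in 136 of 149 members (91.3%) against 81.2% of all probes, so that the order of the shares turned. With quantile normalization the medians were 0.45 and 1.09. The sets differ in brightness, as 15639 of the other probes tested had a mean signal under 1000, against 10 members. With the main scaling, the median range under 1000 was 1.86 in members and 1.14 in other probes. From 1000 to 10000 it was 1.36 in 11 members and 0.99 in others. In every class above 10000 it was smaller in members, with 0.80 against 0.86 above 50000. Over the 68 tested members that were saturated on no array the median range with the main scaling was 0.83. The part of saturation in these ranges was not tested. The smallest ranges with the main scaling were found for probes of RPL36 (0.11), RPL23A (A_33_P3382560, 0.17), RPS3 (0.20), RPL6 (A_23_P151321, 0.23) and RPL39 (A_23_P34018, 0.26). Of these only the RPL39 probe was saturated on any array. Other probes varied more, such as A_24_P91140 of RPL23A (1.01) and A_33_P3329916 of RPL6 (0.76). With quantile normalization all of these small ranges were wider. The levels then ran from 5.28 to 5.77 (RPL36), 6.03 to 6.47 (RPL23A), 4.91 to 5.22 (RPS3), 5.80 to 6.28 (RPL6) and 6.35 to 7.30 (RPL39). RPL36 read the 4 values given above, and its levels were 5.51, 5.59, 5.48 and 5.58.

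By median difference over the members, the crossed pairs of arrays, replicate 1 of one line with replicate 2 of the other, did not stand apart as over all probes. Replicate 1 of HK-2 and replicate 2 of RPTEC/TERT1 differed by a median of 0.21 over the members. Of 149 probes, 0 were apart by more than 1 on the log2 scale (0%, against 5.53% of all probes tested). Replicate 2 of HK-2 and replicate 1 of RPTEC/TERT1 differed by 0.33, with 4 of 149 (2.68% against 7.56%). The 2 HK-2 arrays differed by 0.51, with 12 of 149 (8.05% against 35.2%). The 2 RPTEC/TERT1 arrays differed by 0.50, with 30 of 149 (20.1% against 41.9%). Replicate 1 differed between the lines by 0.33, as little as the second crossed pair, and replicate 2 by 0.68, where all probes gave 0.73 and 0.70. The shares apart by more than 1 were 10.1% against 37.3% within replicate 1 and 7.38% against 34.7% within replicate 2. Over the 68 tested probes that were saturated on no array the crossed pairs were the closest, with medians of 0.28 and 0.35, while the HK-2 arrays differed by 0.40, the RPTEC/TERT1 arrays by 0.78, replicate 1 of the lines by 0.60 and replicate 2 by 0.52.

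The ratios between arrays were not the same at every brightness. For probes with a mean signal of 20000 to 30000, HK-2 replicate 2 read 2.14 times HK-2 replicate 1 in the 17 members and 1.72 times in 135 other probes. Above 50000 the ratio was 1.21 in 68 members and 1.08 in 81 other probes, although the 75th percentiles stood at 748 and 393. The members did not follow brightness evenly, with a ratio of 1.07 in the 11 members between 1000 and 10000, where 4261 other probes gave 1.86. RPTEC/TERT1 replicate 2 over HK-2 replicate 1 showed 1.30 in members and 1.27 in others between 20000 and 30000, and 1.15 and 1.08 above 50000.

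**Figure D3:**
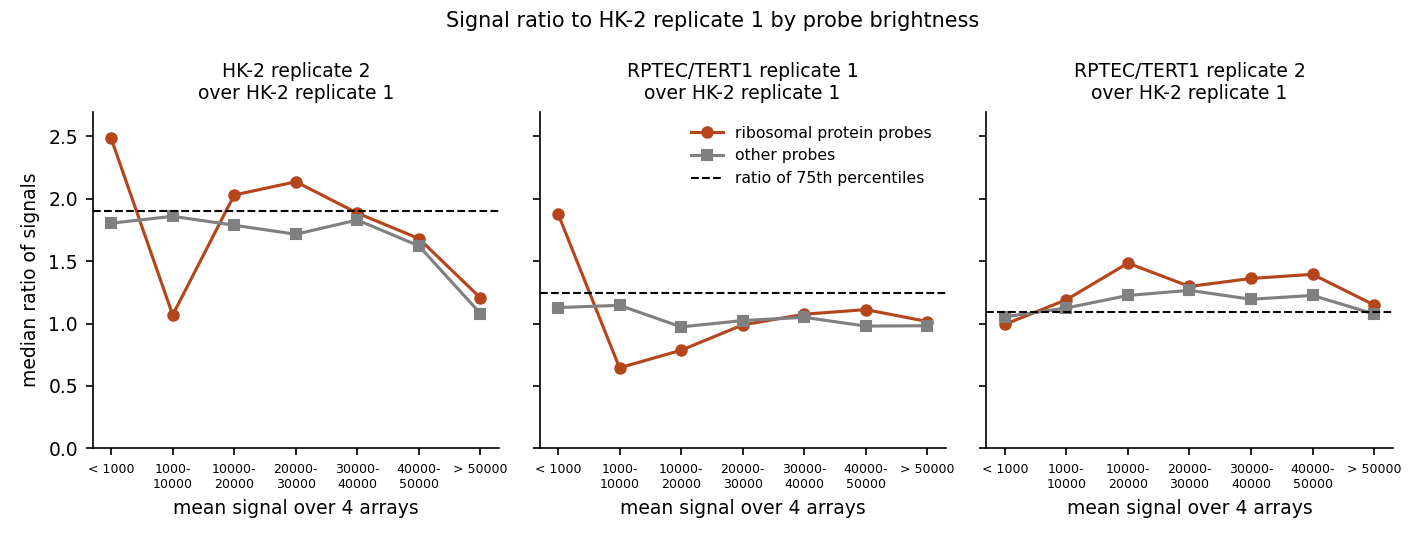
Median ratio of the signal on 3 arrays to that on HK-2 replicate 1, by the mean signal of the probe over the 4 arrays (scanner units), for ribosomal protein probes (circles) and other tested probes (squares), with the ratio of the 75th percentiles dashed. In the left panel both lines fall in the brightest class, to 1.21 and 1.08, and the circles are lowest, at 1.07, between 1000 and 10000. The 2 dimmest classes hold only 10 and 11 ribosomal protein probes.

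The members that varied most between arrays were additional probes of genes whose other probes varied less. RPS29 A_33_P3282840, designed on transcript variant NM_001030001, read 1940.5 and 423 on the HK-2 arrays and 184 and 1967 on the RPTEC/TERT1 arrays. It was high on replicate 1 of HK-2 and replicate 2 of RPTEC/TERT1 and low on the others, with a range of 3.71 on the log2 scale (13.1-fold). The other RPS29 probes printed above read 32633, 69179, 40854 and 50858 (A_33_P3270852) and 37752, 59473, 47722 and 53370 (A_33_P3419806), and their ranges were 0.52 and 0.65. Both were saturated on HK-2 replicate 2, so these ranges carry the limit given above.

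RPS23, which sits at the decoding centre, behaved alike. Probe A_33_P3257714, 3′ of the other RPS23 probe, read 2390.3, 409, 258 and 2959.7, a range of 3.71 (13.0-fold), while A_32_P84605 read 49055, 62727, 35605 and 63497, a range of 1.02. A_32_P84605 was saturated on HK-2 replicate 2, so its range carries the same limit. The lines overlapped for both RPS23 probes. The differences between the lines were -0.07 with a standard error of 1.78 for A_33_P3257714 and -0.02 with 0.59 for A_32_P84605.

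The opposite pattern was seen on dim probes of 3 other genes. RPL28 A_33_P3299319 read 33.1, 248.5, 217 and 21.2, high on replicate 2 of HK-2 and replicate 1 of RPTEC/TERT1, with a range of 3.17. RPS21 A_33_P3239569 read 22.7, 163, 142 and 14.3, and RPS4X A_33_P3345414 read 19.6, 115, 134 and 12.3. RPS21 was not well above background on RPTEC/TERT1 replicate 2, and RPS4X, an X-linked small subunit gene, on neither replicate 1 of HK-2 nor replicate 2 of RPTEC/TERT1. The main probes of these genes were bright on all 4 arrays and their ranges lay between 0.45 and 0.81. All of them were saturated on HK-2 replicate 2, so these ranges carry the limit given above. A further RPL28 probe, A_33_P3299314, read 1181, 879, 640 and 1434, a range of 1.51. It was high on replicate 1 of HK-2 and replicate 2 of RPTEC/TERT1, the reverse of A_33_P3299319.

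**Figure D4:**
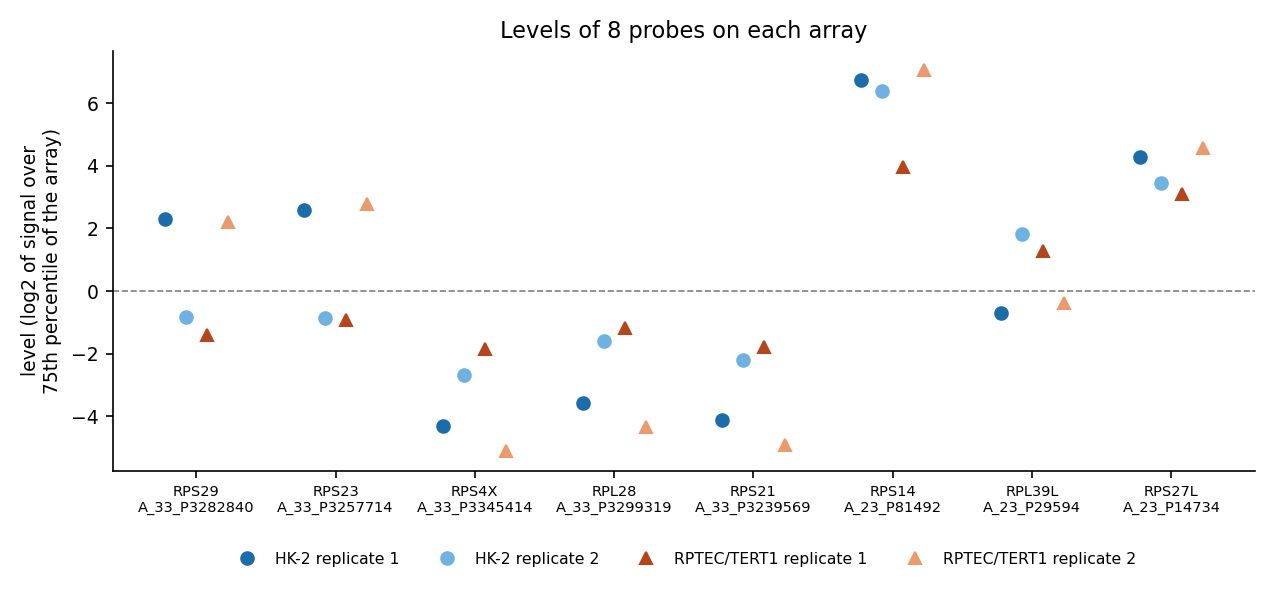
Level (log2 of the signal over the 75th percentile of the array) of 8 ribosomal protein probes on each array, HK-2 as circles and RPTEC/TERT1 as triangles. RPS29 and RPS23 are high on replicate 1 of HK-2 and replicate 2 of RPTEC/TERT1, RPS4X, RPL28, RPS21 and RPL39L on the other arrays, and RPS14 is low on RPTEC/TERT1 replicate 1 only.

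The paralogs RPL39L, RPS27L, RPL3L and RPL10L were each well above background on all 4 arrays. RPL39L, a testis-enriched paralog of RPL39 that many tumour lines express, read 241 and 2669.6 on the HK-2 arrays and 1195 and 326 on the RPTEC/TERT1 arrays. It was high on replicate 2 of HK-2 and replicate 1 of RPTEC/TERT1, the lines overlapped, and the range was 2.54 (5.82-fold). The 4 probes of its parent RPL39 had ranges of 0.26 to 0.59, and 2 of them were saturated on HK-2 replicate 2.

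RPS27L read 7660.2 and 8128 in HK-2 and 4236 and 10271 in RPTEC/TERT1, a range of 1.47, with RPTEC/TERT1 holding the lowest and the highest value. The RPS27 probe aligned with it above read 70548, 64985, 60063 and 60284 and was saturated on all arrays. The difference between the lines was 0.01 with a standard error of 0.72 for RPS27L.

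RPL3L, the striated muscle paralog of RPL3, read 44.6 and 49.0 in HK-2 and 18.5 and 46.1 in RPTEC/TERT1, low on RPTEC/TERT1 replicate 1, and its parent RPL3 read between 28417 and 59986 on 2 probes. RPL10L, an intronless autosomal copy of RPL10 known from testis, read 12064, 17187, 9479 and 18143. RPL10 itself was not analysed here, so the level of the RPL10L probe cannot be set beside that of its parent.

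In 13 genes the mean levels of different probes were more than 4 apart on the log2 scale. They included RPL15, RPL23A, RPL28, RPL37, RPS4X, RPS6, RPS14, RPS21, RPS23, RPS26, RPS27 and RPS29. The gap was largest in RPL28 (12.19), where A_23_P208358 had levels of 6.39 to 7.09 and A_33_P3299309 (NM_001136136) was above background on no array. It was smallest in RPL15 (4.18). Levels of different probes are not directly comparable, and these gaps describe the probes, not the transcripts.

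The dimmest tested members were probes of RPS27, RPL27A, RPS26, RPL3L and RPL37. RPL27A, a core protein of the large subunit, has a single probe on the array, at chr11:8711092-8711151, and it read 43.8 and 18.0 in HK-2 and 13.3 and 39.4 in RPTEC/TERT1. It was low on replicate 2 of HK-2 and replicate 1 of RPTEC/TERT1, and the lines overlapped. On HK-2 replicate 2 its level stood at the floor set for all levels (-5.37), and on RPTEC/TERT1 replicate 1 close to it (-5.20). This single dim probe does not give the abundance of the RPL27A mRNA. The dim RPS6 probe A_33_P3367795 read 23.7, 73.8, 98.6 and 22.6, again high on replicate 2 of HK-2 and replicate 1 of RPTEC/TERT1.

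RPL21 is represented by 9 probes. They differ in sequence, and 1 of them, A_32_P194821, is placed by the files on chromosome 10, whereas the others lie on chromosome 13. This probe read 7986.9 and 15934 in HK-2 and 4562 and 14184 in RPTEC/TERT1. Likewise, RPL13A A_24_P272061 is placed on chromosome 10, whereas the other RPL13A probes lie on chromosome 19. Copies of ribosomal protein genes occur throughout the genome, and reads of near-identical copies by 1 probe cannot be told apart here. Among all members, 3 pairs of probes shared a run of at least 30 bases, each within 1 gene.

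A few ribosomal proteins lie outside the naming rule. FAU, which encodes a fusion of ubiquitin-like FUBI and RPS30, read 31713, 40595, 20996 and 44890, with the lines overlapping. Of 6 such genes 5 could be tested, 0 passed in either direction, also without adjustment (limma), and the median difference was -0.02. The largest absolute differences were -0.08 for RPL7L1, -0.05 for RPL36AL and 0.05 for RPL26L1.

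Among 24 genes for translation factors and other TOP mRNAs, 0 of 33 probes passed in either direction, also without adjustment (limma), with a median difference of -0.03 and a median range of 0.88. The largest absolute differences were those of CCNI (-0.35), PABPC1 (-0.34), the poly(A)-binding protein, and EIF3D (0.29). This EIF3D probe was dim, with a mean signal of 54, and a brighter EIF3D probe, with 11515, gave -0.05. Of 72 mitochondrial ribosomal protein genes with a tested probe, 0 of 84 probes passed, also without adjustment (limma), with a median difference of 0.04 and a median range of 0.78. MRPS16 (-0.44), MRPL12 (-0.40) and MRPS22 (0.36) differed most.

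Ribosome assembly factors, which process ribosomal RNA and join it to the ribosomal proteins in the nucleolus, were compared as a further group. Over 39 probes of 30 genes the median range was 1.19, against 0.79 in the ribosomal proteins, and 0 of 39 passed in either direction, also at an unadjusted p under 0.05 (limma). Single probes of NIP7 (-1.05 with a standard error of 0.60), POLR1C (-0.89) and RRN3 (-0.36) differed most between the lines. Other probes gave -0.21 and 0.03 for POLR1C and 0.27 and -0.19 for RRN3. The RRN3 probe with -0.36 was dim, with a mean signal of 32.4. Relative to the mean of the 4 arrays, the median level of the assembly factors was -0.42 and 0.48 on the HK-2 arrays and 0.35 and -0.40 on the RPTEC/TERT1 arrays, and that of the ribosomal proteins 0.14, -0.26, -0.17 and 0.30.

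With quantile normalization the assembly factors were again below 0 on replicate 1 of HK-2 and replicate 2 of RPTEC/TERT1 and above it on the others, at -0.44, 0.49, 0.44 and -0.44. The ribosomal proteins changed sign on every array, at -0.07, 0.10, 0.02 and -0.01. The array order of the ribosomal proteins therefore changed with the scaling, and no difference between assembly factors and ribosomal proteins was tested.

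**Figure D5:**
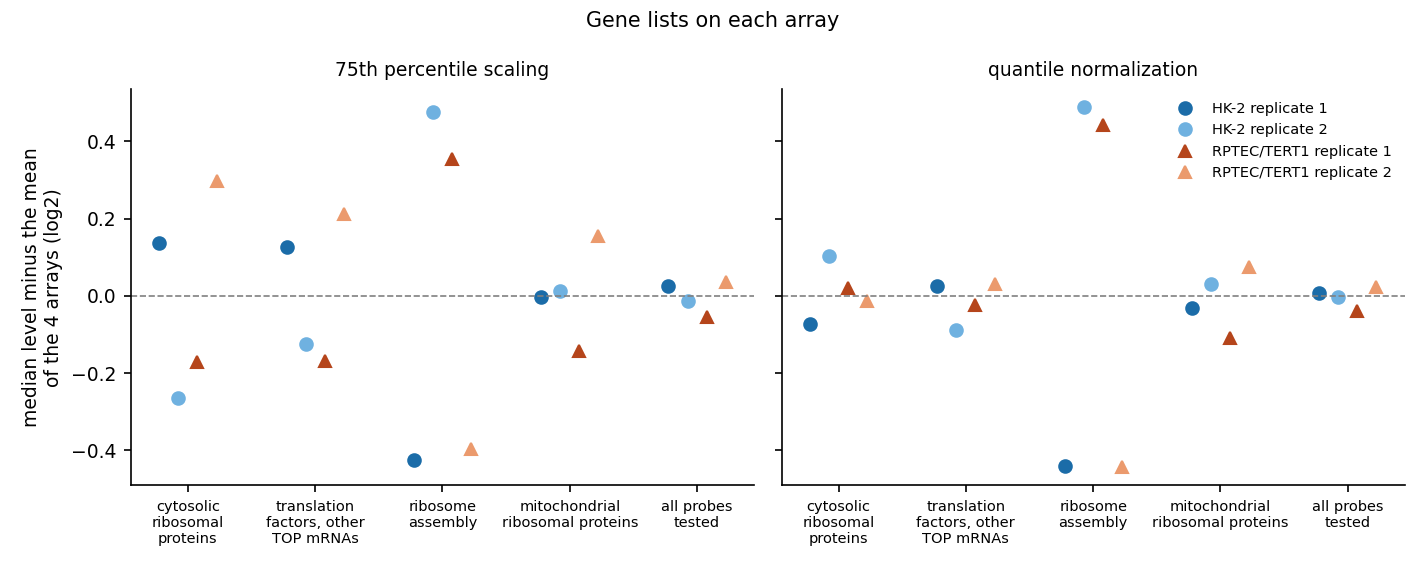
Median level of 5 gene lists on each array after subtracting the mean of the 4 arrays for each probe (log2), with 75th percentile scaling (left) and quantile normalization (right), HK-2 as circles and RPTEC/TERT1 as triangles. The ribosome assembly genes lie above 0 on replicate 2 of HK-2 and replicate 1 of RPTEC/TERT1 in both panels, and the ribosomal proteins change order between the panels.

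A feature that the naming rule did not use is the start of the transcript. Of the 79 gene symbols, 62 matched a promoter entry of RefSeq (GRCh38.p14), some with more than 1 start. A TOP start, a C at the first transcribed base followed by at least 4 bases that are C or T on the strand of the gene, was found in 44 of 75 entries (58.7%) and in 1429 of 35116 promoters of all genes (4.07%). Within 5 bases of the start the shares were 73.3% and 21.1%. A match describes the annotated start only.

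The start regions of RPLP2, RPS6, RPS27, RPL39, RPS27L and RPL10L are shown from 10 bases before to 20 bases from the start, with the unbroken run of C and T at the start in capitals. They lie at chr11:809957-809986 (plus), chr9:19380217-19380246 (minus), chr1:153990752-153990781 (plus), chrX:119791611-119791640 (minus), chr15:63157458-63157487 (minus) and chr14:46651762-46651791 (minus) in GRCh38.p14. The first 4 have a TOP start, and the paralogs RPS27L and RPL10L have none.
RPLP2: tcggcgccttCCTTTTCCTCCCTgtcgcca
RPS6: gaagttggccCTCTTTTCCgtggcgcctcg
RPS27: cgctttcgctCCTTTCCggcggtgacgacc
RPL39: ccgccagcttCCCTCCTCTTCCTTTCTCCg
RPS27L: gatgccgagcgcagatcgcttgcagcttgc
RPL10L: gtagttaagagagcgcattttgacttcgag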

How the data were processed

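Gene expression was measured on 4 arrays (Human GE 4x44K v2), with biological duplicates per cell line according to the methods. For each array the authors deposited linear spot intensities from Agilent Feature Extraction 9.5.3.1. Per the file headers, the processed signal had its background subtracted and carried no scaling across arrays. A series table that the authors deposited holds log2 values with medians of 8.33 and 7.14 (HK-2) and 6.75 and 6.72 (RPTEC/TERT1). Within each array these values ranked the members much as the signals did (Spearman correlation 0.86 to 0.99). Across arrays the medians did not follow the signals, being highest on HK-2 replicate 1, where the 75th percentile was lowest (393). The steps behind the deposited values are not given in the sources used here, so their scaling and centring stay unknown. They were used as an alternative only. For RNA isolation the sources differ: the methods give innuPREP and the labels RNeasy.

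Control and outlier spots did not enter, which left 2 member probes (RPL5 A_23_P12140 and RPL13 A_23_P501849) without a value on all arrays. Each signal was taken relative to its array's 75th percentile, floored at 0.0242 of it and taken to log2, and spots of a probe were averaged. Probes well above background on at least 2 of 4 arrays were tested with limma 3.58.1 in R 4.3.3, HK-2 against RPTEC/TERT1, with Benjamini-Hochberg adjustment over all 20807 probes, and the script was tested on simulated data. Precision is limited by having 2 arrays per line. Each array lay on a slide of its own. Members and gene lists were chosen with earlier results of these data known. Named were the 5 member probes highest or lowest in mean level, difference in either direction or range, RPLP0 to RPLP2, genes ending in L with their parents, genes whose probes differed by over 4 in level, saturated probes where 10 or fewer, and the 3 genes of each list with the largest absolute difference. Members with the smallest range, and those described for the number of spots or chromosome, were chosen after their values were seen. Some members and list genes that the rule names are not reported here.

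Alternatives were normexp background correction (offset 50), the deposited log2 values, median scaling, quantile normalization, other filters on dim probes, outlier spots kept, saturated probes left out, gene means, a replicate block and leaving out each array. The crossed block and the limit on bright probes were chosen after seeing the data. Sequences came from the array files and from RefSeq.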

Additional observations from a re-analysis of the deposited data

How the results depend on the processing

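No alternative called a ribosomal protein probe: the number of calls was 0 among the members and 0 among all probes with every setting named above, leave-one-out fits included (0 to 0), where a lone array was assumed to vary like the others. Unadjusted p-values under 0.05 numbered 0 among the members, except for 1 with normexp correction and 1 without RPTEC/TERT1 replicate 2, and between 5 and 298 among all probes. Leaving out 1 array moved the members' median level between 6.40 and 6.60, their median difference between -0.38 (RPTEC/TERT1 replicate 1 dropped) and 0.10 (its replicate 2 dropped), being -0.32 when replicate 1 of HK-2 was dropped and 0.09 when replicate 2 was, and their median range between 0.52 and 0.77.

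The median level of the members, 6.49, was 6.02 with normexp correction, 6.18 with the deposited log2 values, 9.61 with median scaling, 5.32 without saturated probes and 4.65 for probes with a mean signal under 30000 (the last 3 by construction of the scale or of the probes kept, the others for a cause that was not tested). The median difference of -0.09 became -0.60 with normexp correction, where the median over all probes moved from 0.02 to 0.37, and the median range of 0.79 became 1.35 with normexp correction and 0.45 with quantile normalization. The cause was not tested. The deposited values moved the median difference over all probes to 0.20 and that of the members to -0.19.

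The replicate block gave 0 calls among members and 0 among all probes, with 5 unadjusted p-values under 0.05 in place of 26. Arrays of the same number did not deviate together (correlation across probes -0.80 over all probes and -0.64 over the members), and a crossed replicate block, HK-2 replicate 1 with RPTEC/TERT1 replicate 2, gave 0 calls as well. Saturation limits every statement on the brightest members, and 2 arrays per line limit all others.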
